A study of Mus musculus with 30 samples.

Results

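Wnt pathway genes were examined in the developing mouse dorsal pancreas across 5 consecutive days of gestation. The set holds 44 genes, from the secreted ligands to the transcription factors at the end of the pathway. A gene entered the analysis where the platform annotation of at least 1 probe set gave its symbol, current or older, and no other symbol. A probe set is a group of short oligonucleotides on the array that together measure 1 transcript. By this rule 43 of the 44 genes were measured, by 94 of 36701 probe sets, and all arrays together covered 15964 named genes. Tcf7 had no such probe set. Of several probe sets for a gene, the brightest on average over the 10 arrays of a chip stood for it, and this one lay on chip A for 28 genes, on chip B for 11 and on chip C for 4. Of the 43 genes, 27 had more than 1 probe set.

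RNA came from NMRI mouse embryos with no genetic change or treatment, collected at 5 stages that lie 1 day apart, from embryonic day 12.5 (e12.5) to embryonic day 16.5 (e16.5). Only the dorsal bud was dissected, and it was used whole, so that epithelium, mesenchyme, nerves and vessels were measured together. The buds of litters were pooled, 1 pool of RNA per stage, and each pool was labelled in 2 separate reactions, each hybridised to the 3 Affymetrix chips A, B and C of the MG-U74v2 set, for 30 arrays. The labelling reactions of a stage share the same RNA and show technical spread only, so the pool was taken as the replicate, with n = 5 pools along the series and 1 at each stage. Values are log2 expression values and differences are on the log2 scale. A level has no detection call and depends on the probe set, so it was set only against the median of its own chip (5.75 on chip A, 5.29 on chip B and 4.01 on chip C), never against another gene's.

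Labelling reactions of a stage correlated with r of 0.9957 to 0.9984, and no probe set was 2-fold apart between them. A change is given as the slope of a straight line in time, fitted with limma to the 5 pool means of a probe set, times 4 days, with its standard error. P-values were adjusted over all 36701 probe sets by the Benjamini-Hochberg method, and a gene rose or fell where the adjusted p was under 0.05. The tissue label was checked against cell type markers in this way. Of 13 acinar marker genes, most of them for digestive enzymes, 12 rose with stage, and the trypsinogen gene Prss2 had a change of 6.47 ± 0.57. Of 12 endocrine markers 5 rose, 2 fell and 5 did not pass. Among them the insulin gene Ins2 had a change of 7.53 ± 0.86 and the glucagon gene Gcg of -0.97 ± 0.20. Of 12 markers of pancreas epithelium and progenitors 4 rose, 1 fell and 7 did not pass. On that list the acinar transcription factor gene Ptf1a had 2.18 ± 0.19. Of 12 markers of spleen, stomach and gut 4 rose, none fell and 8 did not pass. Their summed log2 level was 55.85 at e12.5 and 61.39 at e16.5, and 8 of the 12 had a mean below their chip's median. Over all genes 11.9% rose and 17.0% fell. Among 20 mesenchyme markers 9 fell, 2 rose and 9 did not pass, and among 11 markers of neural crest, neurons and Schwann cells 7 fell, 1 rose and 3 did not pass. In whole tissue, fewer cells of a type and less RNA per cell cannot be told apart.

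Wnt ligands are lipid-modified secreted proteins that bind Frizzled receptors at the cell surface. In the branch that runs through β-catenin, binding of a ligand to Frizzled and an LRP co-receptor recruits Dishevelled and inhibits a destruction complex of Axin, APC and the kinases GSK3 and casein kinase 1, and β-catenin then accumulates and acts with TCF/LEF factors in the nucleus. Other branches act on cell polarity, movement and calcium, often through Wnt5a, Ror and Ryk. In the mouse pancreas the pathway is known for roles in the growth of the organ and of its acinar cells, and both epithelium and mesenchyme take part.

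For 27 of the 43 genes the RefSeq promoter table of build GRCm38.p6 held 35 promoter windows of 300 bases, from 250 before the transcription start to 50 after it. The windows were searched on both strands for the core that TCF/LEF factors recognise, spelled NNCAAAG with A or T at each N, since several Wnt genes are themselves known targets of the pathway. A match was present in 6 of the 35 windows (17.1%), against 16.9% of all 32851 windows in the table and 13.2% of the 16015 windows of genes on the arrays. The matches lay in windows of Dkk1, Fzd7, Lef1, Tcf7l2, Wnt11 and Wnt5b. None of the 6 windows of 5 genes that fell with stage (Ctnnb1, Dvl2, Fzd1, Gsk3b and Wnt2) held one. This says only that these letters are not in these windows. The other falling genes, Sfrp1, Wnt5a, Fzd2 and Csnk1a1, had no window to search. The members' windows had a median of 24 CpG dinucleotides, against 17 in the windows of genes on the arrays and 7 in all windows. The windows of Gsk3b, at chr16:38088751-38089050 on the plus strand, and of Fzd1, at chr5:4758167-4758466 on the minus strand, are shown because every probe set of these genes fell with stage. Those of Fzd7, at chr1:59481897-59482196 on the plus strand, and of Wnt11, at chr7:98834862-98835161 on the plus strand, are shown because they hold a match, printed in capitals. Counted from the transcription start, the Fzd7 match begins at base -130 and the Wnt11 match at base -51. Each is written 5′ to 3′ along the gene's strand.
Gsk3b: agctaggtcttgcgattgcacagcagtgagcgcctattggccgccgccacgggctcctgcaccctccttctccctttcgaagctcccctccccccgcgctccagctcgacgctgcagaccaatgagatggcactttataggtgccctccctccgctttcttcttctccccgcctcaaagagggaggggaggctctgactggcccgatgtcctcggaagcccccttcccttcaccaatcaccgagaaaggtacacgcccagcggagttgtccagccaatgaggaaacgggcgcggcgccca
Fzd1: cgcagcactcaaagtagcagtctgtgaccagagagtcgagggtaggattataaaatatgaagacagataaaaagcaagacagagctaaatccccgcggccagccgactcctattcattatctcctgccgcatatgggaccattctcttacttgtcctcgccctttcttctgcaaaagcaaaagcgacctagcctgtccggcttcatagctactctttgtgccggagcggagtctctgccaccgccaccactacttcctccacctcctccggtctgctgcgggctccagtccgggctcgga
Fzd7: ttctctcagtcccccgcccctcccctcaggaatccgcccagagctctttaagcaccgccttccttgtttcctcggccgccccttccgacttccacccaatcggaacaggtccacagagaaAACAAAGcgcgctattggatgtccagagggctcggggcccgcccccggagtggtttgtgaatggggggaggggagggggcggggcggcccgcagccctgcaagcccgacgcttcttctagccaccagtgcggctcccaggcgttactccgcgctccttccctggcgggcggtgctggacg
Wnt11: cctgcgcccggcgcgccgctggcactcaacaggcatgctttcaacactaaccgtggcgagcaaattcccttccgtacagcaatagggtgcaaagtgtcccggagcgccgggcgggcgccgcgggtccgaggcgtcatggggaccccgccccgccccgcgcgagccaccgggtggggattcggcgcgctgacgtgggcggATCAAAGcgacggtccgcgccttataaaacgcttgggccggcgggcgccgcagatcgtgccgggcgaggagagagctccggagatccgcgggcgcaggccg

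The first question was which Wnt pathway genes changed steadily over the 4 days. Of the 43 genes, 9 fell, none rose and 34 did not pass. The 9 were the ligand genes Wnt5a and Wnt2, the receptor genes Fzd1 and Fzd2, the inhibitor gene Sfrp1, and the intracellular genes Dvl2, Gsk3b, Csnk1a1 and Ctnnb1. They are 20.9% of the members, beside 17.0% of all genes that fell, so the share lay near the background. For rises the background was 11.9% of all genes, and in limma at an unadjusted p under 0.05 there were 3 members higher and 15 lower, beside 20.5% of all genes higher and 23.6% lower. The median change of the members was -0.09, beside 0.02 for all genes, with 29 negative and 14 positive values. Without the e16.5 pool 6 members fell, the fewest when any 1 pool was left out. Of all 36701 probe sets 4825 fell with every pool and 2278 without the e16.5 pool.

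**Figure D1:**
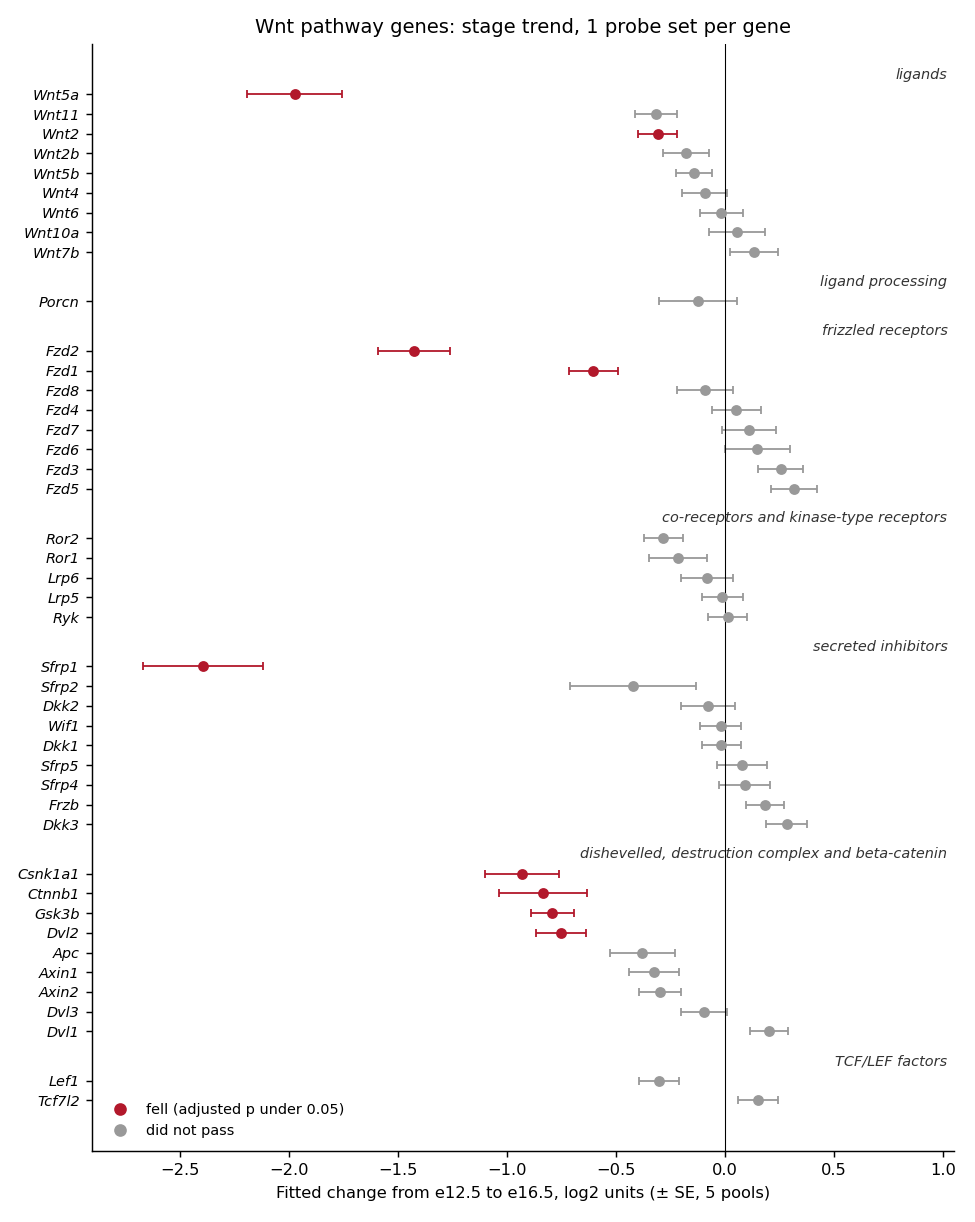
Change over 4 days of the 43 Wnt pathway genes, as the slope of log2 expression over embryonic day times 4, grouped by role; bars show the standard error of the limma fit over 5 pool means, and colour shows whether the gene passed an adjusted p of 0.05. Sfrp1, Wnt5a and Fzd2 lie farthest to the negative side, and no gene with a positive change passed.

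The calls were also read by brightness. All 10 arrays were above the chip median for 28 members and below it for 13. Those 13 were Wnt2b, Wnt6, Wnt10a, Wnt11, Porcn, Frzb, Sfrp4, Sfrp5, Dkk1, Dkk2, Wif1, Dvl3 and Apc. Of the 28 members with a mean above their chip's median 8 fell (28.6%), and of 10515 such genes 21.8% fell and 12.6% rose. Of the 15 members below it 1 fell (6.67%), and of 5449 such genes 7.73% fell. A change in a dim gene may be understated on these arrays.

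Among the ligand genes, Wnt5a had the largest change, and the brightest probe sets of the other genes had changes of -0.32 to 0.13. Wnt5a, at chromosome 14 from 28504543 to 28527448, encodes a ligand mainly of the branches that do not use β-catenin. Its probe set on chip A read 6.50 and 6.47 at e12.5, 5.99 and 6.02 at e13.5, 5.07 and 5.32 at e14.5, 4.58 and 4.83 at e15.5, and 4.72 and 4.62 at e16.5. Both reactions at each of the 3 last stages lay below both at e12.5 and e13.5, and e15.5 and e16.5 overlapped. The change was -1.97 ± 0.22, a fall of 3.93-fold (limma adjusted p = 0.002211). From e14.5 on the values lay under the median of chip A. The other 3 probe sets of Wnt5a also fell, by 2.20 ± 0.19, by 1.83 ± 0.18 and by 0.52 ± 0.14. The call held under all 25 alternatives in which the gene could be fitted, with changes of -2.46 to -1.52.

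Wnt2, at chromosome 6 from 17985474 to 18032772, encodes a ligand that acts through β-catenin and is known from mesenchyme of the foregut and lung. It read 6.10 and 6.12 at e12.5, 5.91 and 6.04 at e13.5, 6.07 and 6.01 at e14.5, 5.95 and 5.94 at e15.5, and 5.63 and 5.86 at e16.5 on chip C. The reactions at e12.5 were the highest and those at e16.5 the lowest, with the stages between them close together. Its change was -0.31 ± 0.09 (limma adjusted p = 0.04358), and the call was lost in 13 of 26 alternatives, among them without the pools of e12.5 (-0.32), e13.5 (-0.34), e14.5 (-0.31) and e16.5 (-0.18). Its other probe set, which is dim on chip B, rose by 0.43 ± 0.11 (limma adjusted p = 0.02834), so no single direction can be given for Wnt2.

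The other 7 ligand genes did not pass. Wnt11, a ligand of cell movement in gastrulation, had a change of -0.32 ± 0.10 (limma adjusted p = 0.05464) at a level below the chip median on every array. Wnt7b, which in the mouse acts in lung and kidney epithelium and in pancreatic progenitors, read 6.37 and 6.52 at e12.5, 6.58 and 6.75 at e13.5, 6.57 and 6.58 at e14.5, 6.60 and 6.59 at e15.5, and 6.62 and 6.68 at e16.5, with a change of 0.13 ± 0.11. Its second probe set, on chip A, fell to 5.57 and 5.50 at e16.5, against 6.25 and 6.11 at e12.5 (change -0.79 ± 0.15, limma adjusted p = 0.01162). For Wnt7b 1 probe set passed and the other did not, and their difference was not tested. Wnt4, a ligand of kidney and gonad formation, stayed between 7.13 and 7.54 on all 10 arrays of chip C (-0.09 ± 0.11). Wnt5b had a change of -0.14, Wnt2b of -0.18, Wnt6 of -0.02 and Wnt10a of 0.05. Porcn, the enzyme that attaches the lipid to Wnt ligands, was dim at 2.85 to 3.62 and had a change of -0.12 ± 0.18.

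Of the 8 Frizzled genes 2 fell (25.0%), beside 17.0% of all genes, and all 8 were above the chip median on every array. Fzd2, at chromosome 11 from 102604431 to 102608058, read 9.27 and 9.20 at e12.5, 9.18 and 9.09 at e13.5, 8.80 and 8.83 at e14.5, 8.38 and 8.45 at e15.5, and 7.72 and 7.91 at e16.5 on chip A. Every stage lay below the one before it, with the widest step at the end. The change was -1.43 ± 0.17, a fall of 2.69-fold (limma adjusted p = 0.00256). Both further probe sets of Fzd2 are dim, on chip B, and did not pass, and their mean gave a change of 0.17 (limma adjusted p = 0.3383). Fzd1, at chromosome 5 from 4753839 to 4758216, read 9.03 and 9.12 at e12.5, 8.80 and 8.73 at e13.5, 8.65 and 8.57 at e14.5, 8.59 and 8.46 at e15.5, and 8.48 and 8.41 at e16.5 on chip B. Its largest step was the first. The change was -0.60 ± 0.11, or 1.52-fold (limma adjusted p = 0.00808), and a second probe set, on chip A, fell by 0.54 ± 0.11. Without the e12.5 pool the change of Fzd1 was -0.42 and did not pass (limma adjusted p = 0.0674).

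The remaining Frizzled genes did not pass, and 5 of the 8 had a positive change. Fzd5, which acts in the eye and gut epithelium, read 5.98 and 5.95 at e12.5, 6.13 and 6.14 at e13.5, 6.12 and 6.19 at e14.5, 6.33 and 6.32 at e15.5, and 6.24 and 6.29 at e16.5 (0.32 ± 0.11, limma adjusted p = 0.06275). Both reactions at every later stage were above both at e12.5. Fzd3, known for axon guidance, had a change of 0.26 ± 0.10 on its brightest probe set, and 1 of its other probe sets, on chip C, rose by 0.79 ± 0.22 (limma adjusted p = 0.03959). Fzd7, a receptor of stem cells, had 0.11 ± 0.12 on chip A, where it read 6.20 and 6.27 at e16.5, against 6.11 and 6.06 at e12.5. On chip B its other probe set fell to 4.17 and 4.29 at e16.5, against 5.89 and 5.85 at e12.5 (-1.48 ± 0.15, limma adjusted p = 0.0008438). The probe sets of Fzd7 thus disagreed by more than their errors. Fzd4, the receptor of retinal vessels, had a change of 0.05, Fzd6, a receptor of planar polarity, of 0.15 and Fzd8 of -0.09.

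None of the 5 co-receptor and kinase-type receptor genes passed, with 1 lower and none higher in limma at an unadjusted p under 0.05. At that threshold 23.6% of all genes were lower and 20.5% higher. Lrp5 and Lrp6, the co-receptors of the β-catenin branch, had changes of -0.01 and -0.08. Ryk, a receptor with an inactive kinase domain, had 0.01 ± 0.09 and a range of 0.08 between its highest and lowest pool means. Ror2, a receptor for Wnt5a, had -0.28 ± 0.09 (limma adjusted p = 0.06343) and its relative Ror1 -0.22 ± 0.13. Each had another probe set that fell. That of Ror1 on chip B fell to 5.01 and 5.01 at e16.5, against 6.71 and 6.46 at e12.5 (-1.54 ± 0.14, limma adjusted p = 0.0005303). For Ror2 a probe set on chip A had -0.96 ± 0.18 (limma adjusted p = 0.01216).

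Sfrp1 had the largest change of all 43 genes. It encodes a secreted Frizzled-related protein that binds Wnt ligands outside the cell, and lies at chromosome 8 from 23411383 to 23449632. The probe set on chip B read 9.25 and 9.17 at e12.5, 7.99 and 8.10 at e13.5, 7.37 and 7.41 at e14.5, 6.94 and 6.94 at e15.5, and 6.67 and 6.87 at e16.5. The steps became smaller with each day, and no 2 stages overlapped. The change was -2.39 ± 0.28, a fall of 5.26-fold (limma adjusted p = 0.001245), and it passed under all 26 alternatives. The second probe set, on chip A, fell to 6.11 and 6.10 at e16.5, against 8.95 and 9.0 at e12.5 (-3.04 ± 0.16, limma adjusted p = 0.0002812), a fall of 8.23-fold.

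Sfrp2, a close relative, followed another course. It read 7.16 and 7.14 at e12.5, 7.56 and 7.54 at e13.5, 7.56 and 7.64 at e14.5, 7.24 and 7.15 at e15.5, and 6.81 and 6.79 at e16.5. The values were highest at e13.5 and e14.5 and lowest at e16.5, and the line did not pass (-0.42 ± 0.29, limma adjusted p = 0.3257). Without the e12.5 pool its change was -1.06 and passed (limma adjusted p = 0.02645). Dkk3, a member of the Dickkopf family, had 0.28 ± 0.09 (limma adjusted p = 0.05896), with both reactions at e16.5 above both at e12.5. The remaining 6 inhibitor genes, Frzb, Sfrp4, Sfrp5, Dkk1, Dkk2 and Wif1, were below the chip median on every array and had changes of -0.08 to 0.18. Wif1 was among the dimmest 0.556% of probe sets on its chip, where a change may not be seen.

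**Figure D2:**
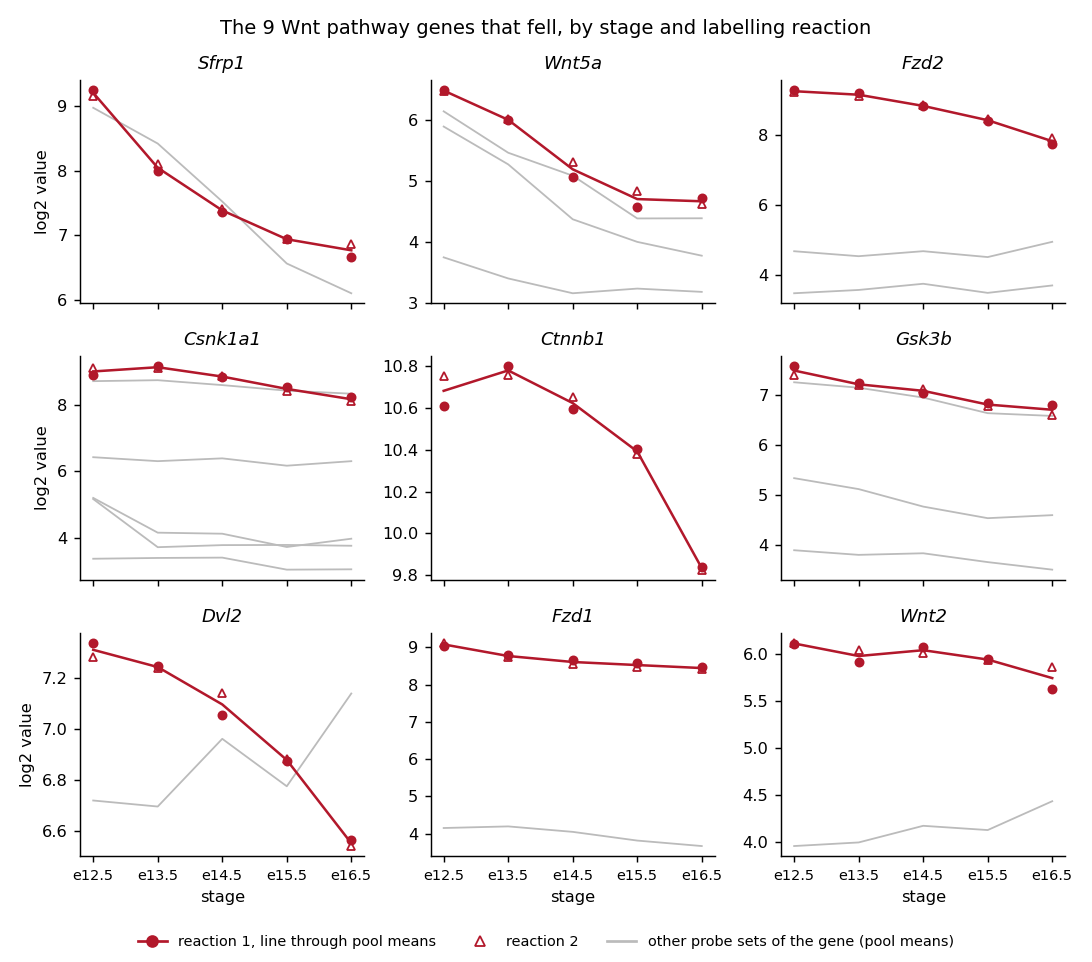
Log2 expression of the 9 Wnt pathway genes that fell, by embryonic day; points are the 2 labelling reactions of a stage and lines join the pool means. Each panel has its own vertical scale, because levels of different probe sets are not comparable. Sfrp1 drops most at the first step and Ctnnb1 is flat until e14.5 and lowest at e16.5.

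Inside the cell, 4 of 9 genes of the Dishevelled proteins, the destruction complex and β-catenin fell and none rose. Beside this, 17.0% of all genes fell and 11.9% rose. In limma at an unadjusted p under 0.05, 7 of the 9 were lower, where 23.6% of all genes were lower. Ctnnb1, which encodes β-catenin, lies at chromosome 9 from 120933400 to 120960507. It read 10.61 and 10.75 at e12.5, 10.80 and 10.76 at e13.5, 10.60 and 10.65 at e14.5, 10.40 and 10.38 at e15.5, and 9.84 and 9.83 at e16.5. The 3 first stages were within 0.2 of each other and the largest step was the last. The change was -0.83 ± 0.20, or 1.78-fold (limma adjusted p = 0.02891). The call was lost when the e13.5 pool (-0.77, limma adjusted p = 0.0783) or the e16.5 pool (-0.41, limma adjusted p = 0.178) was left out. Ctnnb1 has 1 probe set, so no second one could be compared.

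Csnk1a1, the casein kinase that starts the phosphorylation of β-catenin, read 8.91 and 9.11 at e12.5, 9.17 and 9.11 at e13.5, 8.84 and 8.87 at e14.5, 8.54 and 8.43 at e15.5, and 8.23 and 8.12 at e16.5. As for Ctnnb1, the highest stage was e13.5 and the lowest e16.5. The change was -0.93 ± 0.17, or 1.91-fold (limma adjusted p = 0.01141), and 3 of its 5 other probe sets fell. With the e16.5 pool left out the call was lost (-0.74, limma adjusted p = 0.0927). Gsk3b, the kinase that completes the phosphorylation, lies at chromosome 16 from 38089001 to 38246084. Its values were 7.58 and 7.41 at e12.5, 7.24 and 7.20 at e13.5, 7.05 and 7.13 at e14.5, 6.85 and 6.77 at e15.5, and 6.80 and 6.61 at e16.5. Gsk3b fell day by day. The change was -0.79 ± 0.10, or 1.73-fold (limma adjusted p = 0.001737), all 3 other probe sets fell, and the call held under all 26 alternatives.

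Dvl2, 1 of 3 Dishevelled genes, lies at chromosome 11 from 70000592 to 70010109. It read 7.34 and 7.28 at e12.5, 7.25 and 7.24 at e13.5, 7.05 and 7.14 at e14.5, 6.88 and 6.88 at e15.5, and 6.56 and 6.54 at e16.5. Each stage was below the one before. The change was -0.75 ± 0.11, or 1.68-fold (limma adjusted p = 0.006239). Averaged with its second probe set, which had a change of 0.37 and did not pass, the gene had -0.19 and did not pass (limma adjusted p = 0.177). The 2 other Dishevelled genes did not pass, with 0.20 ± 0.09 for Dvl1 and -0.10 for Dvl3. Of the scaffolds of the destruction complex, Axin1 had -0.33 ± 0.11 (limma adjusted p = 0.08181) and the dim Apc -0.38 ± 0.15 (limma adjusted p = 0.1119), and neither passed.

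Axin2 is both a scaffold of the complex and a widely used target gene of the β-catenin branch. It read 6.61 and 6.39 at e12.5, 6.36 and 6.42 at e13.5, 6.37 and 6.35 at e14.5, 6.26 and 6.15 at e15.5, and 6.20 and 6.24 at e16.5. The values at e15.5 and e16.5 lay below all earlier ones, but by little beside the difference of 0.22 between the 2 reactions at e12.5. Its change of -0.30 ± 0.10 did not pass (limma adjusted p = 0.05696). Of the nuclear factors, Lef1 had -0.30 ± 0.09 (limma adjusted p = 0.05473) and Tcf7l2, the TCF factor of the gut, 0.15 ± 0.09 (limma adjusted p = 0.2731). A dimmer probe set of each fell, by 0.40 ± 0.09 for Lef1 (limma adjusted p = 0.02543) and by 1.07 ± 0.16 for Tcf7l2 (limma adjusted p = 0.003043).

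Counted over probe sets in place of genes, 27 of 94 (28.7%) fell and 2 (2.13%) rose, beside 13.1% and 10.6% of all probe sets. Probe sets of a gene measure the same RNA and are not separate evidence. Of the 43 probe sets used, 7 are of types whose probes can be shared with other transcripts or were chosen by relaxed rules, those of Wnt2, Wnt4, Wnt5b, Porcn, Tcf7l2, Fzd3 and Fzd4. At least 1 probe set fell for 16 members and rose for 2, Fzd3 and Wnt2. For 7 members, Fzd7, Lef1, Lrp6, Ror1, Ror2, Tcf7l2 and Wnt7b, the brightest probe set did not pass and another fell. For Lrp6 that probe set was dim, with -0.59 ± 0.13 (limma adjusted p = 0.02156). Of the 8 falling members with more than 1 probe set, 5 had a second that fell, namely Sfrp1, Wnt5a, Gsk3b, Fzd1 and Csnk1a1.

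**Figure D3:**
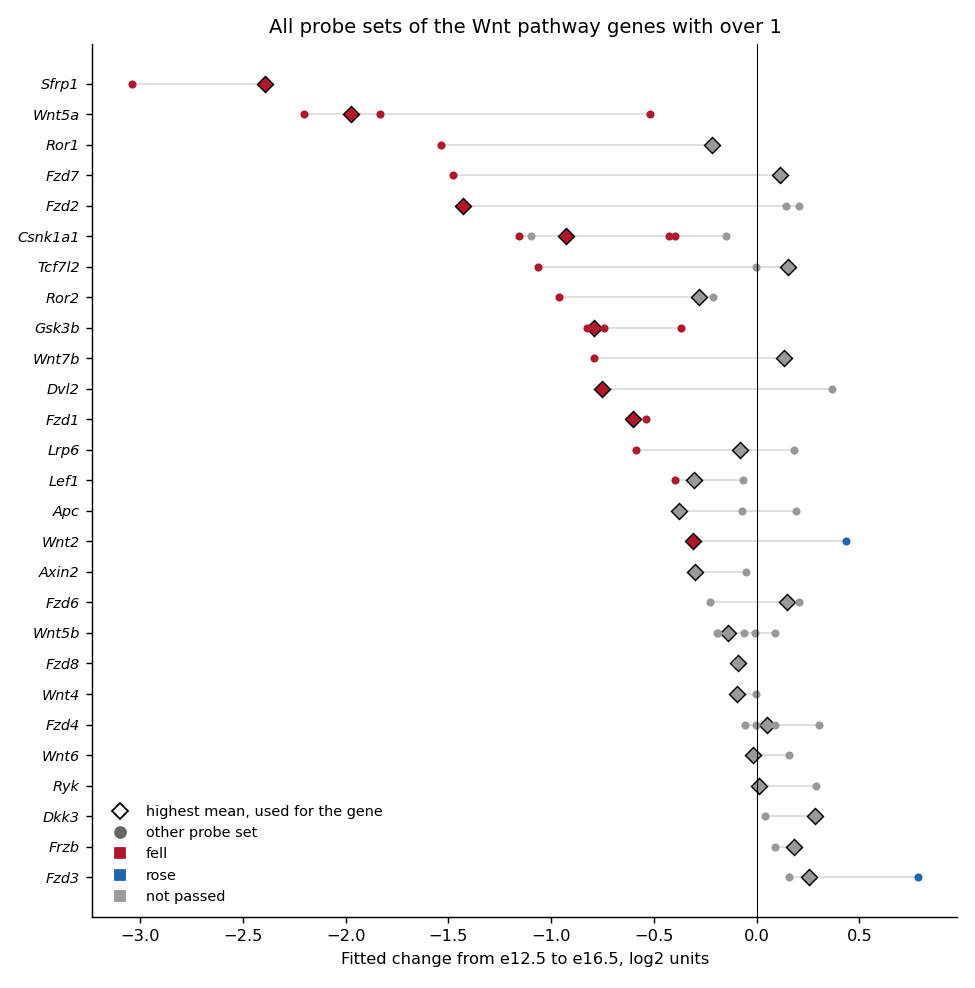
Change over 4 days (log2) of every probe set of the 27 Wnt pathway genes with over 1 probe set. Diamonds with a black edge are the probe sets used for the gene and circles the others. Colour shows whether a probe set rose, fell or did not pass. For Fzd7, Ror1 and Tcf7l2 a circle lies far to the negative side of the diamond, and for Gsk3b and Wnt5a all points are negative.

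A peak or dip within the series was sought with a quadratic term over the same 5 pool means, given as the fitted value at e14.5 minus the mean of the fitted ends. No member had a peak by limma and 1, Sfrp1, had a dip, beside 0.357% of all genes with a peak and 0.294% with a dip. At an unadjusted p under 0.05 there were 7 members with a peak and 4 with a dip, beside 9.33% and 7.07% of all genes. For Sfrp1 the difference was -0.63 ± 0.09 (limma adjusted p = 0.02907), which in a falling gene means a drop that is steeper at first. The call did not hold without the e12.5 pool (-0.49, limma adjusted p = 0.345). Sfrp2 had 0.59 ± 0.09 (limma adjusted p = 0.05119) and Ctnnb1 0.40 ± 0.07 (limma adjusted p = 0.08116), and neither passed.

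The last stage was also set directly against the first. With 1 pool at each stage this gives a size and no test. Of the 43 genes, 3 (6.98%) were at least 2-fold lower at e16.5 than at e12.5 and none was 2-fold higher, beside 4.25% and 2.2% of all genes. They were Sfrp1 at -2.44, Wnt5a at -1.82 and Fzd2 at -1.42. For all 9 falling genes both e16.5 arrays lay below both e12.5 arrays. Of consecutive stages, only e13.5 against e12.5 held a member that was 2-fold apart, Sfrp1 at -1.16, beside 0.188% of all genes. No member was 2-fold apart for e14.5 against e13.5 (0.182% of all genes), e15.5 against e14.5 (0.545%) or e16.5 against e15.5 (0.445%). For 26 of the 43 genes the 5 pool means lay within a range of 0.3.

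Genes around these members were described with 7 further lists. Their counts stand beside 17.0% of all genes that fell and 11.9% that rose. At an unadjusted p under 0.05 in limma, 23.6% of all genes were lower and 20.5% higher. Of 7 other Wnt ligand genes none passed, with 2 higher and none lower in limma at an unadjusted p under 0.05: Wnt3a at 0.37 ± 0.12 and Wnt3 at 0.23 ± 0.09. Of 11 other receptor genes 3 fell and none rose. They were the glypican gene Gpc3 (-1.18 ± 0.13), the co-receptor gene Ptk7 (-0.87 ± 0.13) and Fzd10 (-0.33 ± 0.07), and Fzd10 lost its call with the e12.5 or the e16.5 pool left out. Among 12 genes of secreted modulators and Wnt export, 2 fell and 3 rose. Sostdc1, which encodes a secreted inhibitor, rose by 2.91 ± 0.42 from a level below the chip median. Notum, the enzyme that removes the lipid from Wnt ligands, rose by 0.64 ± 0.19, but did not pass without the e12.5 or the e13.5 pool. Wls, the carrier that brings Wnt ligands to the cell surface, fell by 0.80 ± 0.10, though the mean of its probe sets gave 0.06 (limma adjusted p = 0.574). Igfbp4 fell by 1.18 ± 0.11.

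The next lists hold mainly genes that act in the cell after the receptors. The shares over all genes were 17.0% falling and 11.9% rising. Among genes with a mean above their chip's median they were 21.8% and 12.6%. Of 27 other genes of the destruction complex and cytoplasm 13 fell and none rose, with a median change of -0.54. Dact1, a Dishevelled-binding protein, had -2.0 ± 0.24, Skp1, a subunit of the ubiquitin ligase that marks β-catenin, -1.14 ± 0.19, and the tankyrase genes Tnks and Tnks2 -1.0 ± 0.10 and -0.98 ± 0.15. Of 24 nuclear partners of β-catenin 10 fell and 1 rose (median -0.37), with the chromatin remodeller gene Smarca4 at -1.21 ± 0.21, the co-repressor genes Tle3 at -1.01 ± 0.14 and Tle1 at -1.0 ± 0.26, and Crebbp at -0.67 ± 0.14. Of 33 genes of the planar polarity and calcium branch 14 fell and 4 rose (median -0.26). Prickle2 had -1.27 ± 0.15, Vangl2 -0.79 ± 0.12 and Ppp3cb -0.85 ± 0.18, and the calcium-dependent transcription factor gene Nfatc1 rose by 0.82 ± 0.10. Without the e16.5 pool these 3 lists held 7, 3 and 5 falling genes. Falling calls over all 36701 probe sets were 4825 with every pool and 2278 in that fit. Crebbp, Tle1 and Ppp3cb were among the calls lost there. Tle1 was also lost without the e13.5 or the e15.5 pool, and Ppp3cb without the e12.5 pool.

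Of 40 genes known as targets of the pathway, 12 fell, 1 rose and 27 did not pass, with a median of -0.18. Beside them, 17.0% of all genes fell and 11.9% rose. Mycn had -1.82 ± 0.22, Ccn4, a secreted matrix protein gene, -1.39 ± 0.16, Irs1, of insulin signalling, -1.25 ± 0.12, and the gap junction gene Gja1 -1.22 ± 0.30. Without the e16.5 pool 2278 of 36701 probe sets fell, beside 4825 with every pool. The list of targets then held 8 falling genes, and Gja1 did not pass, nor did it without the e13.5 or the e15.5 pool. These genes have other regulators too, and 4 of them are also on the lists of cell type markers.

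**Figure D4:**
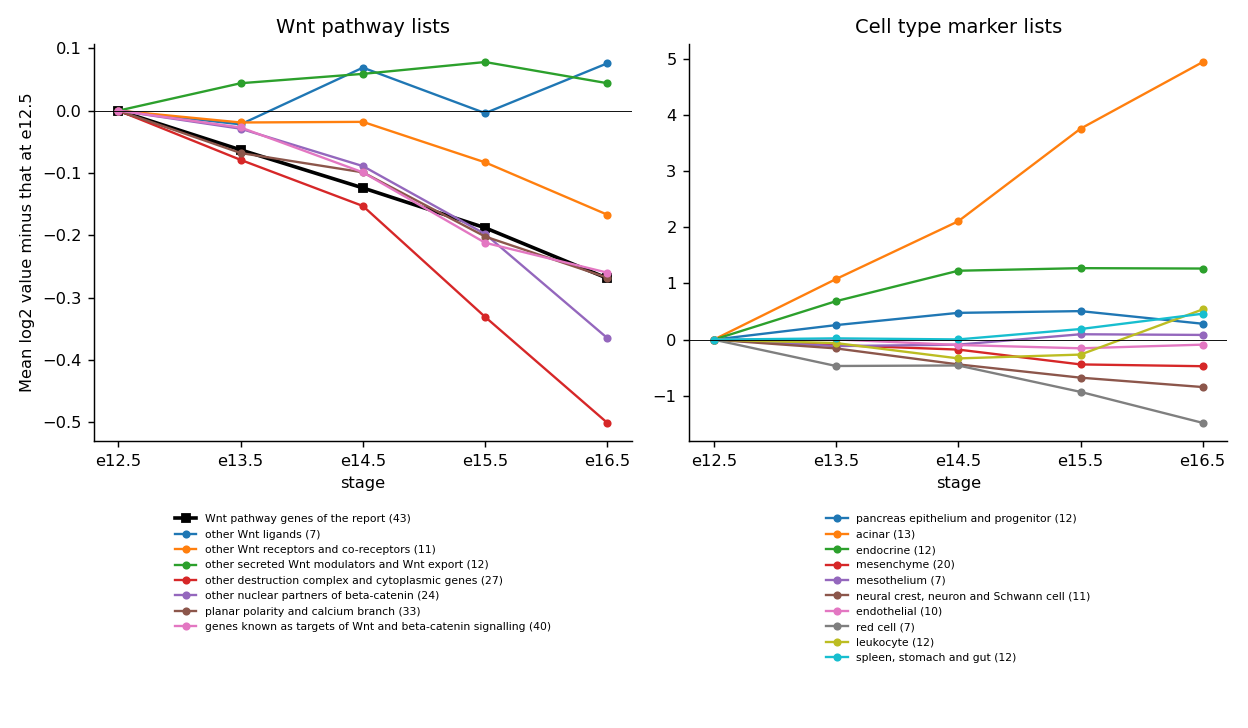
Mean log2 expression of each gene list by embryonic day, minus its mean at e12.5. The left panel shows the Wnt pathway members and the 7 further pathway lists, and the right panel the lists of cell type markers. Before the subtraction, the mean over the 43 members was 6.40 at e12.5 and 6.13 at e16.5.

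Summed levels of the mesenchyme and nerve markers were lower at the later stages, with single markers going either way. The summed log2 level over the 20 mesenchyme markers was 145.09 at e12.5, 143.12 at e13.5, 141.53 at e14.5, 136.26 at e15.5 and 135.62 at e16.5. The single arrays gave 135.03 and 136.22 at e16.5, against 144.35 and 145.82 at e12.5. Within that list the transcription factor genes Hand2 (-2.72 ± 0.12), Tcf21 (-2.57 ± 0.22) and Snai2 (-1.99 ± 0.19) fell, and the collagen genes Col1a1 (-0.29 ± 0.20), Col1a2 (-0.36 ± 0.16) and Col3a1 (-0.23 ± 0.23) did not pass. The 2 mesenchyme markers that rose, named after their values were seen, were Postn (1.66 ± 0.15) and Dcn (1.29 ± 0.19). The sum over the 11 markers of neural crest, neurons and Schwann cells was 71.15 at e12.5, 69.43 at e13.5, 66.30 at e14.5, 63.70 at e15.5 and 61.86 at e16.5. On that list Gap43 had -2.04 ± 0.16 and Ncam1 -1.72 ± 0.16, and Sox10 (0.24 ± 0.12) and Tubb3 (-0.25 ± 0.15) did not pass. Ret, also named after its value was seen, rose by 0.68 ± 0.19 (limma adjusted p = 0.04398), and no gene of the list rose with the e12.5, the e13.5 or the e14.5 pool left out. Of 10 endothelial markers 3 fell and 1 rose, and of 12 leukocyte markers 2 fell and 2 rose. The leukocyte sum was 70.44 at e12.5, 67.25 at e15.5 and 76.91 at e16.5. Of 7 red cell markers 3 fell and 2 rose, and their sum was 66.03 at e12.5 and 55.65 at e16.5. Of 7 mesothelium markers 2 fell and 2 rose, with sums of 46.91 and 47.5. Over all genes 17.0% fell and 11.9% rose. Without detection calls these levels do not show whether a marker was present. The part of these cell types in the falls of Sfrp1, Wnt5a, Fzd2 and the other members was not tested.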

How the data were processed

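The authors deposited 1 log2 value per probe set for every array. RMA is the tool named, per the submitters' processing notes, and the range of the values gave the log base. RMA corrects the background, normalizes arrays by quantiles and summarises probes, so differences in total RNA between arrays are removed. The chips came in separate tables and levels were not tested across them. The version of RMA was not given in the sources used here.

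Of 36701 probe sets, 29131 had 1 symbol in the platform annotation, 724 had several and 6846 were unnamed here. The 2 arrays of a pool were averaged. On these means limma 3.58.1 in R 4.3.3 fitted a line, or a second-degree curve, with Benjamini-Hochberg adjustment over all chips. The labels do not say how many litters formed a pool. P-values rest on the spread of these 5 pools about the line or curve, which limma moderates with that of the chip's other probe sets. The number of pools, 1 per stage, limits the precision. The functions were tested on simulated data. The promoters are RefSeq's.

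The members and lists were chosen with earlier results of these data known. All members may be named. From each further list the text names up to 4 genes with the largest passing change, or 2 where none passed, and from each marker list the 3 brightest and the 3 with the largest change, of which some are given. Alternatives were other scalings, a filter on dim probe sets, a trend in the prior variance, adjustment within chips, other treatments of the labelling reactions, the mean of a gene's probe sets, other fold minimums and leaving out each array or pool. No samples were left out.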

Additional observations from a re-analysis of the deposited data

How the results depend on the processing

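Of 3120 alternative values of single genes, under up to 26 settings, 2856 kept direction and call, 75 changed sign with neither value passing, 123 lost the call, 64 gained it and 2 reversed, both with the mean of a gene's probe sets on 1 chip: Fzd2 at 0.17 (limma adjusted p = 0.338) and Wls at 0.0581. The 9 falling members became 14 with all 10 arrays and the pool as a random block, and 6 to 10 when an array or pool was left out. With all 10 arrays, falling calls over all probe sets went from 4825 to 6208 and rising calls from 3886 to 5425. That fit enters both labelling reactions of a pool, which share the same RNA, so its higher counts are not evidence from more pools. Rising members, 0 as reported, were 1 with quantile normalization again, 2 with cyclic loess, 2 with adjustment within chips, 2 with all 10 arrays, 2 with the mean of probe sets and 0 to 1 with an array or pool left out. Members with a peak, 0 as reported, were 2 within chips, 5 with all 10 arrays, 1 with labelling reaction 1 alone and 0 to 3 with an array or pool left out. The dip of Sfrp1 was lost with bright probe sets only (0 members), and was 0 to 1 in the leave-out fits. Over all probe sets, falling calls ranged from 2278 (without the e16.5 pool) to 4999 in the leave-out fits. Rising calls ranged there from 1275 (without the e16.5 pool) to 4035. With bright probe sets only there were 3480 falling and 2143 rising calls. That setting fitted only probe sets with a mean above their chip's median, so all its counts are out of fewer probe sets. Curve calls, 186 as reported, were 122 with median centring, 308 within chips, 45 with bright probe sets only, 2028 with all 10 arrays, 112 with labelling reaction 2 alone and 21 to 1967 in the leave-out fits. A 1.5-fold minimum gave 8 members lower at e16.5 than at e12.5 and 4 apart between consecutive stages. The share of all genes past 1.5-fold was not counted, so these counts have no background and cannot be set beside the 2-fold shares. Quantile normalization again gave 0 members 2-fold apart between consecutive stages. The cause of these shifts was not tested.

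The labelling numbers 1 and 2 showed no clear pairing of stages within a chip. Same-numbered deviations from the stage means correlated at -0.176 to 0.11 over 30 pairs of stages, 1 of them over 0.1. Pairing of the numbers across chips was not tested. With the number as a replicate block there were 12 falling and 1 rising members, 3 members with a peak, 6011 falling and 5138 rising probe sets and 1682 curve calls. Signal over background is unknown without detection calls, which limits the 13 members below the chip median on every array.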
